A study of Mus musculus with 6 samples.

Results

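This set holds 45 genes of the lysosome, read in primary cell cultures of the mouse inner ear with and without *Nhe6*. The members encode proteases, glycosidases, sulfatases and lipid hydrolases of the lysosome with their cofactors, proteins that export cholesterol, lysosomal membrane proteins, an enzyme and a receptor of the mannose 6-phosphate route, and the transcription factor TFEB. They were chosen by gene symbol from their known roles, and each of the 45 symbols was found among the 24421 genes of the count table. All 45 passed the filter on low counts, which left 13479 genes for testing.

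The lysosome is the acidic compartment in which proteins, glycans and lipids are broken down. Most of its soluble enzymes are tagged with mannose 6-phosphate in the Golgi apparatus, carried by mannose 6-phosphate receptors through endosomes, and become active as the pH falls. NHE6 is a sodium and proton exchanger of recycling and early endosomes that lets protons out of them, so it acts on the route that lysosomal enzymes and their cargo take. TFEB is a transcription factor that binds a short element, the CLEAR element, in the promoters of many lysosomal genes.

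The study asked which genes differ between *Nhe6*-knockout and wildtype cells of the blood-labyrinth barrier, the capillary network of the stria vascularis in the cochlea. RNA was sequenced from 6 untreated cultures labelled as primary endothelial cells of the stria vascularis, 3 from *Nhe6*-knockout and 3 from wildtype mice, taken on postnatal days 10 to 12. The knockout mice carried a targeted gene disruption in the whole animal, and each culture was started from the pooled tissue of at least 6 mice and purified by cell sorting. The labels give the strain background of all samples as C57BL/6N, whereas the methods of the study describe a C57bl6/j background.

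The gene counts of a library summed to 25587097 at the lowest and 29126232 at the highest. Wildtype replicate 2 stood apart from the rest on the first principal component, at 106 against -28.5 to -6.52. *Nhe6*-knockout replicates 1 and 2 were closer to each other (chi-square of 4.91 per gene) than any other pair of libraries of the same genotype (90.1 to 398). They differed beyond sampling noise and were kept as separate cultures, but whether they were independent cultures cannot be told from the counts. Of 15 endothelial marker genes, 9 passed the filter. *Pecam1* had at most 8 counts in a library, *Vwf* at most 25, *Tie1* at most 2, and *Cldn5* and *Sox17* had 0 in each library. Other genes of the list were more abundant, but wildtype replicate 2 differed from the rest in several. *Emcn* was at 409 normalized counts in wildtype replicate 2 and 9896 to 18385 in the rest, and *Eng* at 866 and 2721 to 5079. In the other direction, *Cd34* was at 4864 in wildtype replicate 2 and 793 to 1464 in the rest, and *Flt1* at 3174 and 378 to 1150. *Cdh5* was at 179 to 232 in *Nhe6*-knockout and 2508 to 5198 in wildtype libraries. Fibroblast genes were abundant too, with *Col1a2* at 87306 to 186223 normalized counts. Wildtype replicate 2 stood apart in some such genes, in both directions. *Col1a1* was at 27174 in that library against 207 to 1227 in the rest. *Lum* was at 1155 there against 2857 to 7557, and *Pdgfra* at 10083 against 13012 to 19046. Among genes of the cells around vessels, *Acta2* was at 16267 there against 29.3 to 1204 in the rest. *Pdgfrb* went the other way, at 7790 against 14678 to 18983. Others lay between, such as *Egfl7* at 139 to 319 and *Tek* at 189 to 1006 normalized counts. The endothelial list thus ran from absent to abundant genes, and the cells are called cultures here. In such bulk RNA, fewer cells of a type and less RNA per cell cannot be told apart.

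Measured as RPKM, reads per 1000 bases of the principal transcript and per 1000000 counted reads, the members covered a wide range of levels. *Ctsd*, the aspartic protease cathepsin D, had the highest mean over the 6 libraries at 933 RPKM. It was followed by *Psap*, the precursor of the saposins, at 591 RPKM and by *Lamp1*, a heavily glycosylated protein of the lysosomal membrane, at 550 RPKM. *Ctsl* at 503 RPKM, *Lamp2* at 427 RPKM and *Ctsb* at 408 RPKM came next, and the ranges of these 3 genes over the libraries overlapped. At the lower end stood *Tfeb*, with a mean of 3.84 RPKM, and *Ctss*, the cathepsin S of antigen-presenting cells, with 3.07 RPKM. The rank of a gene depends on the transcript length used. With the union of all exons, *Ctsl* moved from place 4 to place 8. *Ctsd* shares 34.4% of its exon bases with *Gm49369* on the same strand, so reads of the pair cannot be assigned by position alone.

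**Figure D1:**
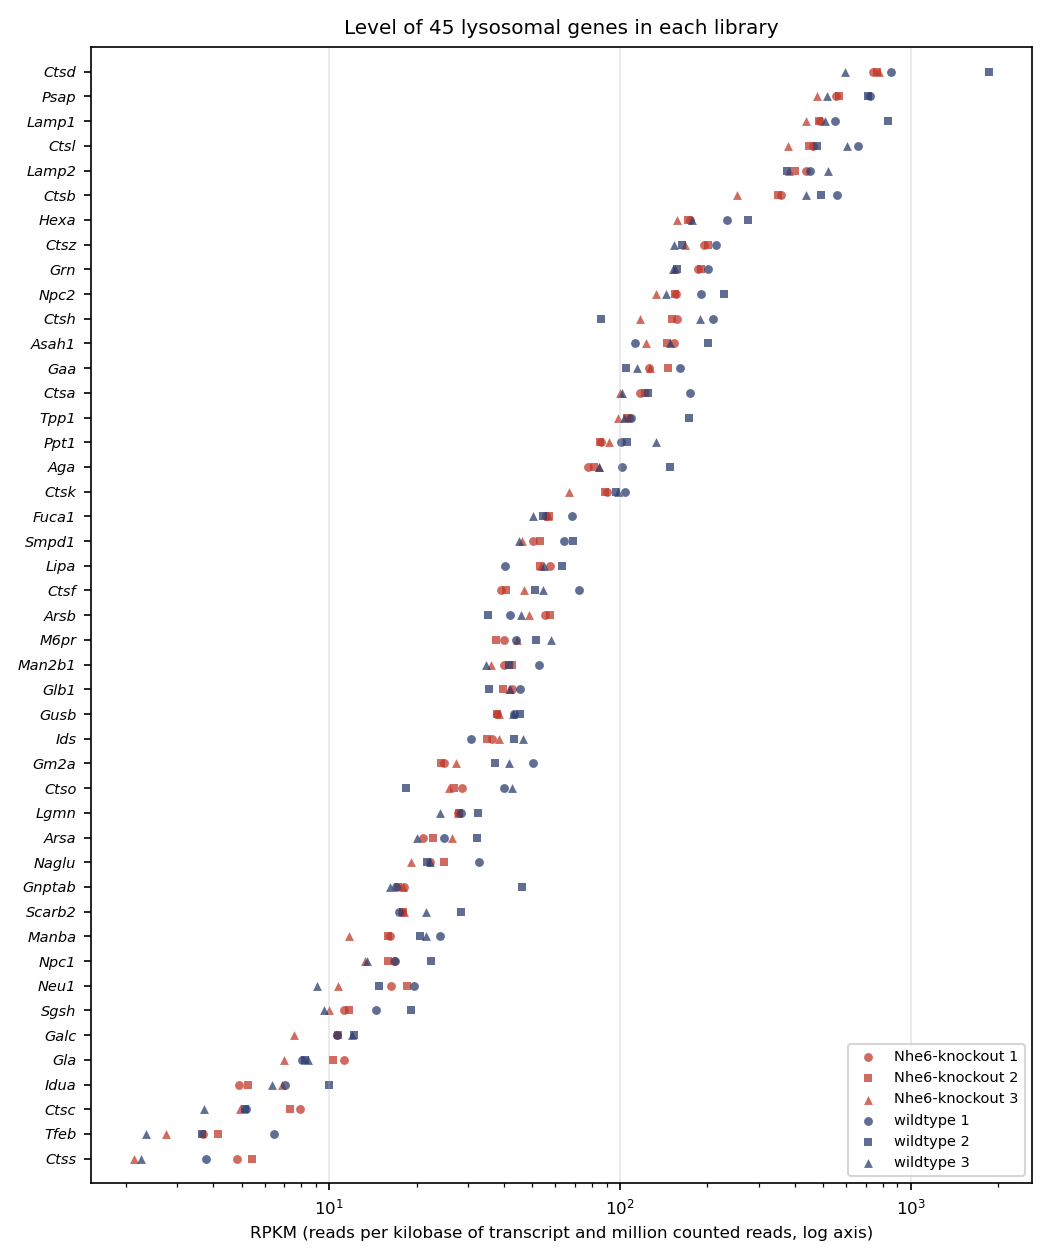
Level of each of the 45 members in each of the 6 libraries, in RPKM on a log axis, with genes ordered by their mean. Red symbols are *Nhe6*-knockout and blue symbols wildtype libraries, and the symbol gives the replicate. *Ctsd* in wildtype 2, at 1861 RPKM, lies to the right of all other points, and *Ctss* has no point for wildtype 2, where its count was 0.

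All members together took 1.47%, 1.47% and 1.32% of the gene counts in *Nhe6*-knockout libraries 1, 2 and 3. In wildtype libraries 1, 2 and 3 they took 1.75%, 1.92% and 1.48%. The wildtype shares were the higher ones, but the share in wildtype replicate 3 was next to those of *Nhe6*-knockout replicates 1 and 2. *Ctsd*, *Ctsb*, *Psap*, *Lamp2* and *Lamp1* had the most reads, and *Ctsd* alone gave 12.6% of the normalized counts of the set.

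Of the 45 members, 0 passed the threshold of 0.05 on the adjusted p in edgeR's quasi-likelihood test, against 0.0668% of all genes tested. The lowest adjusted p of a member was 0.114. At an unadjusted p under 0.05, 5 members were lower in *Nhe6*-knockout cultures (5.71% of all genes tested) and 1 was higher (6.14%). The 5 lower members were *Gm2a*, *Manba*, *Ctsf*, *Ctsb* and *Ppt1*, and the higher member was *Arsb*. DESeq2's Wald test gave 1 member with an adjusted p under 0.05, *Gm2a*, against 3.99% of its genes. Limma-voom gave 0 members with an adjusted p under 0.05 (0.0742% of all genes tested) and 6 with an unadjusted p under 0.05 (11.8%). Without wildtype replicate 2, edgeR's test gave 2 members, *Gm2a* and *Ctso*, against 2.88% of all genes tested in that fit. There, 8 members had an unadjusted p under 0.05, all 8 lower in *Nhe6*-knockout cultures (9.49% of all genes tested).

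The log2 fold change (*Nhe6*-knockout over wildtype) was below 0 for 35 of the 45 members, or 77.8%, and for 51.9% of all genes tested. Its median was -0.24 over the members and -0.02 over all genes tested, and the members ranged from -0.76 to 1.04. Without wildtype replicate 2, 32 members, or 71.1%, were below 0, against 49.9% of all genes, and the median over the members was -0.14. The 3 *Nhe6*-knockout libraries all lay below the 3 wildtype libraries for 11 members (9.57% of all genes tested) and all above them for 1 member, *Arsb* (10.3%). The 11 were *Ctsb*, *Ctsf*, *Ctsk*, *Ctsl*, *Manba*, *Aga*, *Hexa*, *Gusb*, *Ppt1*, *Gm2a* and *Lamp1*. No test was made on these shares, and the genes of 1 library are not independent of each other.

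Genes of dividing cells had higher values in *Nhe6*-knockout cultures. Of 10 cell cycle markers, all 10 were above 0 on the log2 fold scale (median 2.57), where 51.9% of all genes tested were below 0. For 9 the *Nhe6*-knockout libraries all lay above the wildtype libraries (10.3% of all genes tested). After adjustment, 0 of the 10 passed edgeR's test (0.0668% of all genes tested, lowest adjusted p = 0.0652) and 9 passed DESeq2's (3.99% of its genes). In edgeR's test, 9 had an unadjusted p under 0.05, all higher (6.14% of all genes tested). Their summed level was 6818 to 12339 normalized counts in *Nhe6*-knockout and 1974 to 2994 in wildtype libraries. The part of this difference in the levels of the lysosomal genes was not tested.

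**Figure D2:**
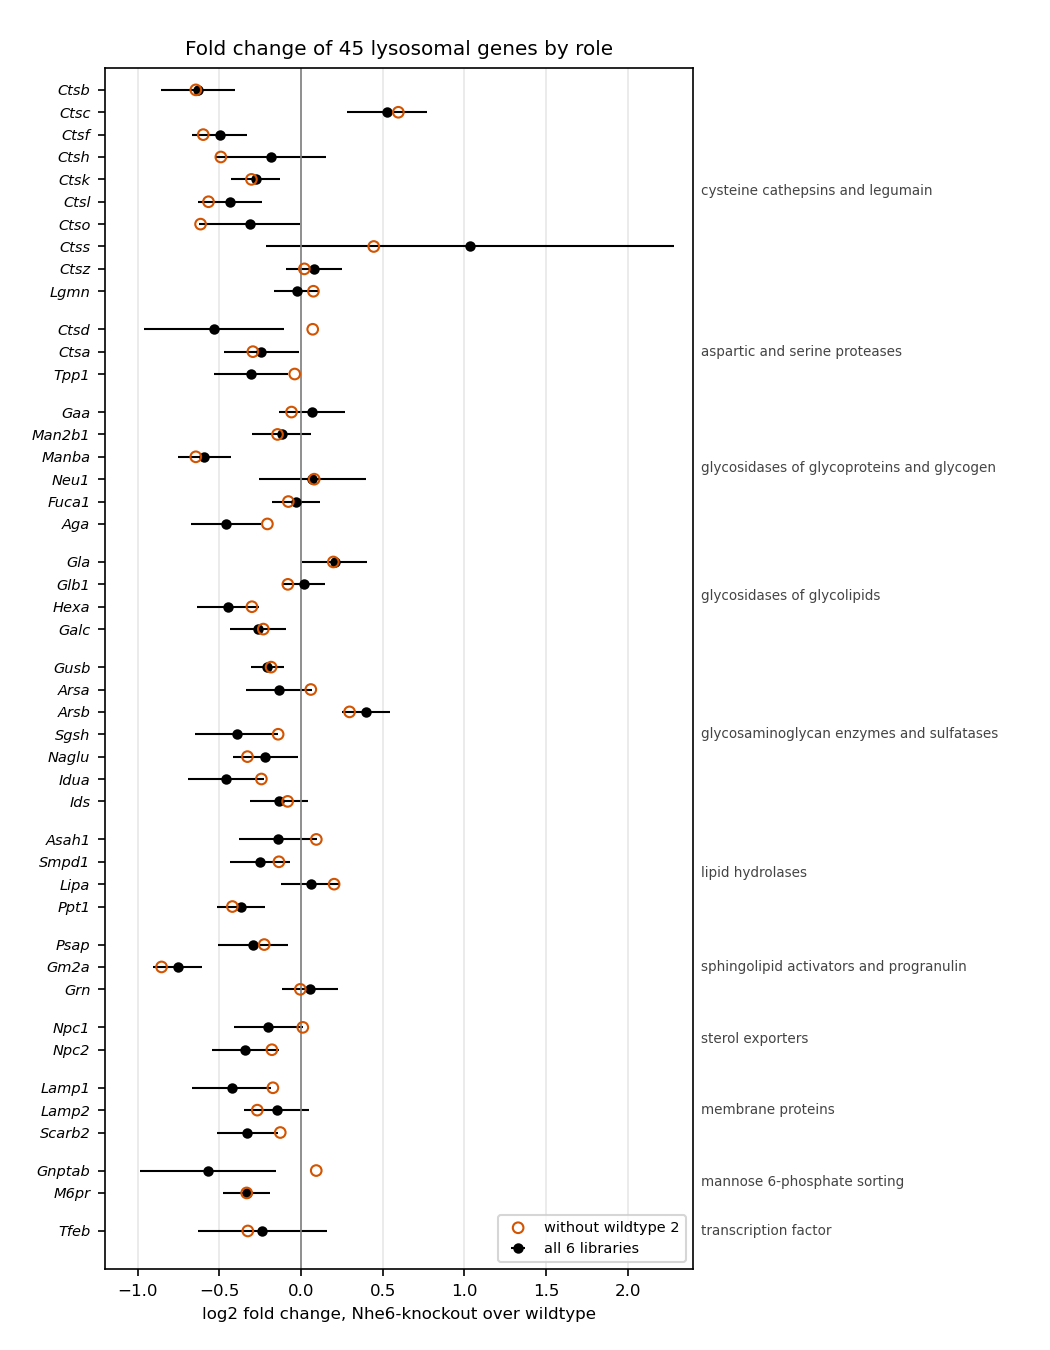
Log2 fold change of each member, *Nhe6*-knockout over wildtype, grouped by role. Filled points with bars give the estimate and its standard error from all 6 libraries, and open circles the estimate without wildtype replicate 2. Most filled points lie left of 0, the bar of *Ctss* is the widest, and the open circles of *Ctsd* and *Gnptab* lie right of 0.

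Among the 10 cysteine proteases of the lysosome, 7 had a log2 fold change below 0 (51.9% of all genes tested). Of these, 2 had an unadjusted p under 0.05 in edgeR's test (5.71% of all genes tested), and 0 passed after adjustment (0.0668%). *Ctsb* (chr14:63122462-63145923, plus strand, GRCm38) encodes cathepsin B, an abundant endopeptidase and peptidyl-dipeptidase. It had 46779, 45771 and 32981 normalized counts in *Nhe6*-knockout replicates 1, 2 and 3 and 73100, 64100 and 57232 in wildtype replicates 1, 2 and 3. All *Nhe6*-knockout values were below all wildtype values. The means were 41844 ± 7692 and 64810 ± 7958 (SD, n = 3), and the log2 fold change was -0.63 (SE 0.23). Its unadjusted p was 0.0306 and its adjusted p 0.36 in edgeR's test.

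*Ctsf* (chr19:4855130-4860918, plus strand), the gene of cathepsin F, had 2126, 2206 and 2549 normalized counts in *Nhe6*-knockout and 3950, 2792 and 2975 in wildtype libraries. The genotypes did not overlap, with wildtype replicate 1 the highest. On the log2 scale, the fold change was -0.50 (SE 0.17), with an unadjusted p of 0.0237 and an adjusted p of 0.326 in edgeR's test. *Ctsl*, the gene of the endopeptidase cathepsin L, had 25001, 24189 and 20463 normalized counts in *Nhe6*-knockout and 35814, 25783 and 32709 in wildtype libraries. The genotypes again did not overlap, but wildtype replicate 2 lay next to *Nhe6*-knockout replicate 1. The log2 fold change of *Ctsl* was -0.44 (SE 0.20, adjusted p = 0.453 in edgeR's test), and 6.1% of its exon bases overlap the pseudogene *Gm49230*.

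*Ctso* (chr3:81932601-81956725, plus strand), the gene of cathepsin O, had 2728, 2567 and 2472 normalized counts in *Nhe6*-knockout and 3824, 1756 and 4077 in wildtype libraries. Wildtype replicate 2 was the lowest and the other wildtype libraries were the highest of the 6. With all libraries the log2 fold change was -0.31 (SE 0.31, adjusted p = 0.759 in edgeR's test). Without wildtype replicate 2 it was -0.61 (SE 0.11, adjusted p = 0.0499), and the adjusted p ranged from 0.0499 to 0.999 over the alternatives. *Ctsh*, the gene of the aminopeptidase cathepsin H, was also lowest in wildtype replicate 2 and highest in the other wildtype libraries, with 6989, 6712 and 5229 normalized counts in *Nhe6*-knockout and 9282, 3827 and 8388 in wildtype. Its log2 fold change was -0.18 with and -0.49 without wildtype replicate 2.

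*Ctsk*, the gene of the collagen-degrading cathepsin K, ranged from 2793 to 3774 normalized counts in *Nhe6*-knockout and from 4038 to 4330 in wildtype libraries, without overlap. This gave a log2 fold change of -0.28 (adjusted p = 0.532 in edgeR's test). *Ctsz*, the gene of the carboxypeptidase cathepsin Z, and *Lgmn*, the gene of legumain, which cleaves after asparagine, had log2 fold changes of 0.08 and -0.03, and both overlapped between genotypes. *Lgmn* was almost level in the *Nhe6*-knockout libraries, at 1398, 1419 and 1399 normalized counts. *Ctsc*, the gene of the dipeptidyl peptidase that activates serine proteases of immune cells, stood on the other side, with 546, 505 and 341 normalized counts in *Nhe6*-knockout and 357, 353 and 255 in wildtype libraries. *Nhe6*-knockout replicate 3 fell within the wildtype range, and the log2 fold change of 0.53 (SE 0.24) had an adjusted p of 0.466 in edgeR's test.

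*Ctss* (chr3:95526786-95556403, plus strand) had 180, 203 and 79.5 normalized counts in *Nhe6*-knockout and 141, 0 and 84.5 in wildtype libraries. Wildtype replicate 2 had no read of *Ctss* among 27367007, a count of 0 that allows up to 3, and the remaining values of the genotypes overlapped. Its log2 fold change of 1.04, the most positive of the set, had an SE of 1.25 (adjusted p = 0.808 in edgeR's test), and was 0.45 without wildtype replicate 2. Macrophage genes had the same gap in wildtype replicate 2. Their 15 markers summed to 3733, 4086 and 1549 normalized counts in *Nhe6*-knockout and 3820, 95.9 and 1985 in wildtype libraries, and 11 of the 15 were at 0 in wildtype replicate 2, *Ptprc*, *Adgre1*, *C1qa*, *C1qb*, *C1qc* and *Laptm5* among them. In the other 5 libraries 1 of the 15 markers was at 0. For each 1000 counts of macrophage markers, *Ctss* had 48.4, 49.6 and 51.3 in *Nhe6*-knockout and 36.8 and 42.6 in wildtype replicates 1 and 3. For wildtype replicate 3 this order rests on *Lyz2*, a large part of the sum. Without *Lyz2* the markers summed to 1610, 1828 and 732 in *Nhe6*-knockout and 1895 and 743 in wildtype replicates 1 and 3. Relative to that sum, *Ctss* in wildtype replicate 3 was not below the *Nhe6*-knockout libraries, whereas wildtype replicate 1 stayed below them.

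**Figure D3:**
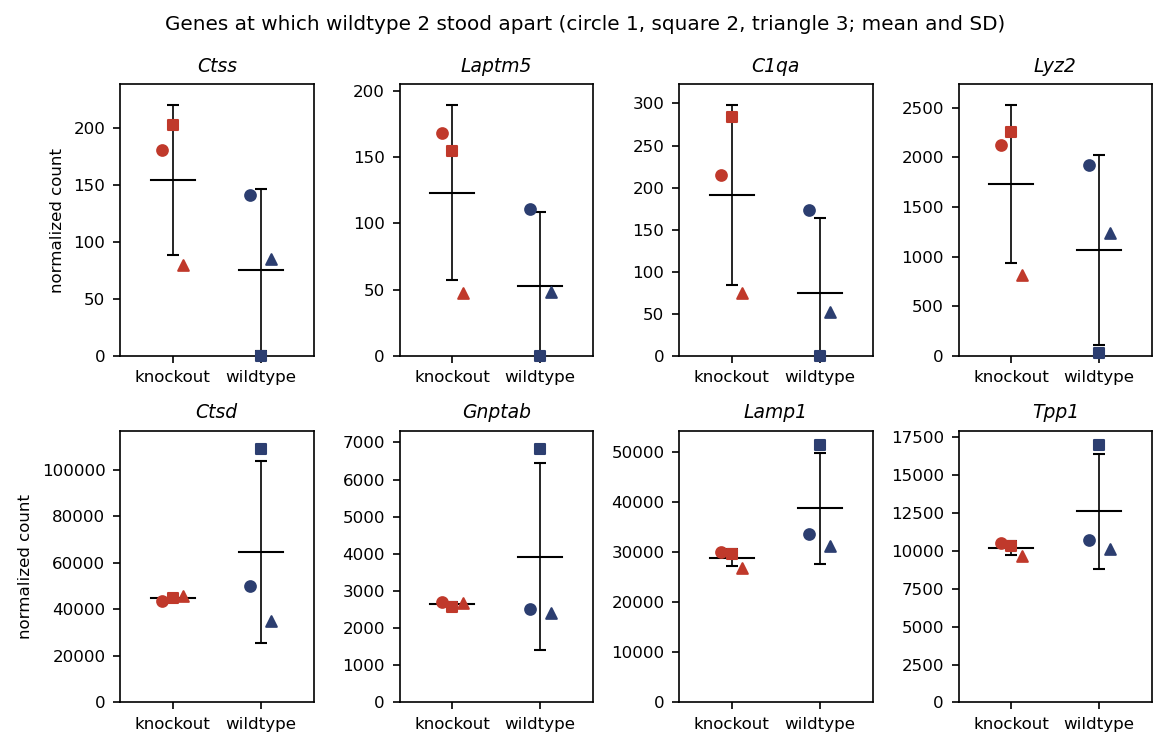
Normalized counts per library of 8 genes at which wildtype replicate 2 (blue square) stood apart, with the mean and SD of each genotype. *Ctss* and the macrophage genes *Laptm5* and *C1qa* are at 0 and *Lyz2* is at 29.9 in wildtype 2, whereas *Ctsd*, *Gnptab*, *Lamp1* and *Tpp1* are highest there.

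The 3 aspartic and serine proteases had log2 fold changes below 0 (51.9% of all genes tested). An unadjusted p under 0.05 in edgeR's, DESeq2's or limma-voom's test was found for 0 of 3 (11.8% of all genes tested in edgeR's test). *Ctsd* (chr7:142375911-142388038, minus strand) had 43610, 44934 and 45563 normalized counts in *Nhe6*-knockout and 50000, 109039 and 34806 in wildtype libraries. The *Nhe6*-knockout libraries lay close together between wildtype replicates 3 and 1, and wildtype replicate 2 was far above. The log2 fold change of -0.53 (SE 0.43, adjusted p = 0.692 in edgeR's test) turned to 0.07 without that library. *Tpp1*, which encodes a peptidase that removes tripeptides, had 10520, 10335 and 9683 normalized counts in *Nhe6*-knockout and 10702, 16978 and 10134 in wildtype libraries. Its log2 fold change went from -0.31 to -0.04 without wildtype replicate 2. *Ctsa*, which encodes a carboxypeptidase that also protects β-galactosidase and neuraminidase 1, was highest in wildtype replicate 1, at 17559 normalized counts, and between 10059 and 12563 in the other 5 libraries.

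Of the 6 glycosidases that take apart glycoproteins and glycogen, 4 had a log2 fold change below 0 (51.9% of all genes tested). Of these, 1 had an unadjusted p under 0.05 in edgeR's test (5.71% of all genes tested). *Manba* (chr3:135485611-135571404, plus strand) encodes β-mannosidase, the last exoglycosidase in the breakdown of N-linked glycans. It had 1636, 1620 and 1186 normalized counts in *Nhe6*-knockout and 2429, 2083 and 2182 in wildtype libraries. No overlap was seen between genotypes, and *Nhe6*-knockout replicate 3 was the lowest. The means were 1481 ± 256 and 2231 ± 178 (SD, n = 3). The log2 fold change was -0.59 (SE 0.16), with an unadjusted p of 0.00918 and an adjusted p of 0.225 in edgeR's test.

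*Aga*, the gene of the amidase that splits the glycan from asparagine, did not overlap either, with 2536, 2644 and 2753 normalized counts in *Nhe6*-knockout and 3319, 4833 and 2760 in wildtype libraries. *Nhe6*-knockout replicate 3 and wildtype replicate 3 were almost equal. Its log2 fold change was -0.46 (adjusted p = 0.469 in edgeR's test) and -0.21 without wildtype replicate 2. *Man2b1*, the gene of α-mannosidase, and *Fuca1*, the gene of α-fucosidase, had log2 fold changes of -0.12 and -0.03, while *Gaa*, the gene of the enzyme that digests glycogen, and *Neu1*, the gene of a sialidase, had 0.07 and 0.07. All 4 overlapped between genotypes. *Neu1* varied widely within a genotype, from 730 to 1262 normalized counts in *Nhe6*-knockout and from 618 to 1335 in wildtype libraries, with replicate 3 the lowest in both.

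Gangliosides are glycolipids whose sugars are removed step by step, and GM2 ganglioside is cleaved by β-hexosaminidase A with the help of the GM2 activator, which lifts the lipid out of the membrane. *Gm2a* (chr11:55098115-55113029, plus strand), the gene of this activator, had 2826, 2762 and 3106 normalized counts in *Nhe6*-knockout and 5715, 4240 and 4726 in wildtype libraries. The 3 *Nhe6*-knockout values were close together and below all wildtype values. The means were 2898 ± 183 and 4894 ± 752 (SD, n = 3), and the log2 fold change of -0.76 (SE 0.15, 95% interval -1.11 to -0.40) was the most negative of the set. Its unadjusted p was 0.00178 and its adjusted p 0.114 in edgeR's test. The adjusted p was 0.0021 with DESeq2's Wald test and 0.0368 in edgeR's test without wildtype replicate 2, where the log2 fold change was -0.85. Over all alternatives it ranged from 0.0021 to 0.545, and was under 0.05 in these 2 of 14.

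*Hexa* (chr9:59539540-59565109, plus strand) encodes the α subunit of β-hexosaminidase A. It had 9580, 9411 and 8634 normalized counts in *Nhe6*-knockout and 12873, 15098 and 9736 in wildtype libraries. The genotypes did not overlap, although wildtype replicate 3 was near *Nhe6*-knockout replicate 1. Its log2 fold change was -0.45 (SE 0.19, adjusted p = 0.432 in edgeR's test).

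**Figure D4:**
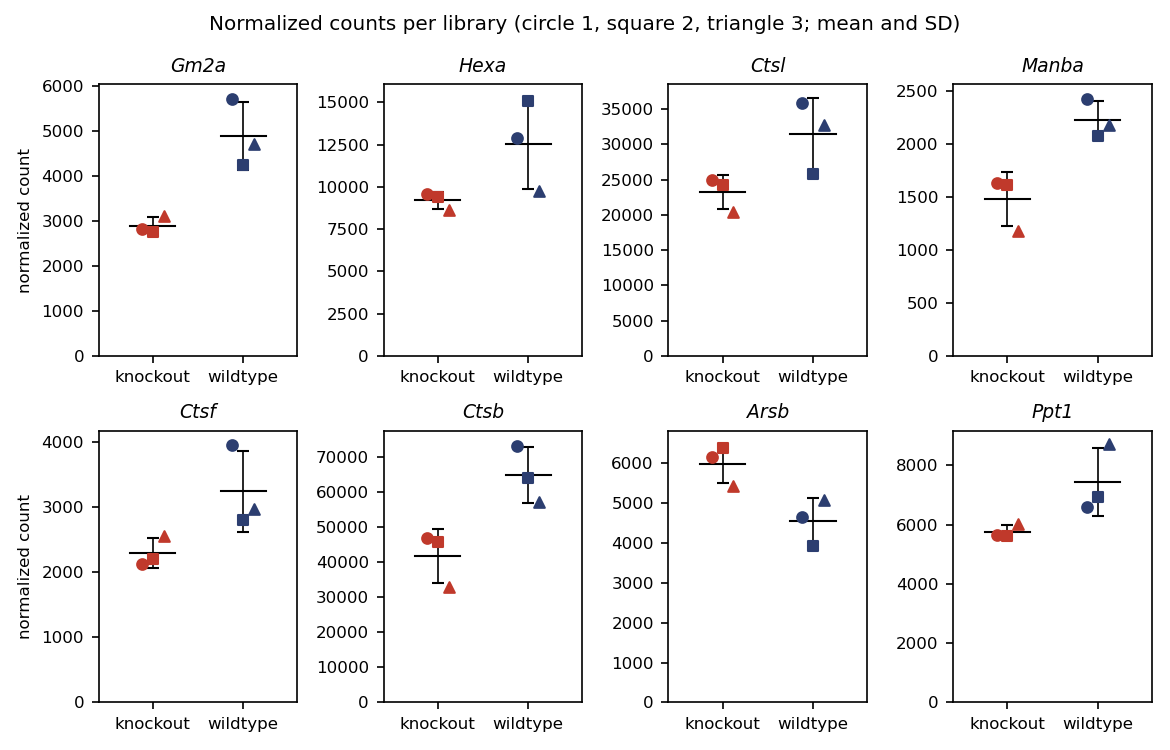
Normalized counts per library of *Gm2a*, *Hexa*, *Ctsl*, *Manba*, *Ctsf*, *Ctsb*, *Arsb* and *Ppt1*, with the mean and SD of each genotype (n = 3) and axes from 0. In 7 panels each red *Nhe6*-knockout symbol lies below each blue wildtype symbol, and for *Arsb* each lies above.

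The other glycolipid enzymes overlapped between genotypes. *Gla*, the gene of α-galactosidase, had a log2 fold change of 0.21, *Glb1*, the gene of β-galactosidase, of 0.02, and *Galc*, the gene of galactosylceramidase, of -0.26. *Gla* was level in wildtype libraries, at 708 to 740 normalized counts, and ranged from 612 to 986 in *Nhe6*-knockout. *Psap*, whose product is cut into saposins that help several sphingolipid hydrolases, had 40470, 41573 and 34765 normalized counts in *Nhe6*-knockout and 53071, 52196 and 37654 in wildtype libraries. Wildtype replicate 3 fell within the *Nhe6*-knockout range, and the log2 fold change was -0.29 (adjusted p = 0.663 in edgeR's test). *Grn*, the gene of progranulin, had a log2 fold change of 0.06.

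Of the 7 members that act on glycosaminoglycans or remove sulfate, 6 had a log2 fold change below 0 (51.9% of all genes tested). *Arsb* (chr13:93771630-93943016, plus strand), which encodes the sulfatase that removes sulfate from N-acetylgalactosamine in dermatan and chondroitin sulfate, was the exception. It had 6157, 6371 and 5434 normalized counts in *Nhe6*-knockout and 4642, 3927 and 5066 in wildtype libraries. All *Nhe6*-knockout values were above all wildtype values. The means were 5987 ± 491 and 4545 ± 576 (SD, n = 3), and the log2 fold change was 0.40 (SE 0.14). Its unadjusted p was 0.0313 and its adjusted p 0.363 in edgeR's test.

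*Gusb*, the gene of β-glucuronidase, varied little between libraries of a genotype, with 2798, 2790 and 2839 normalized counts in *Nhe6*-knockout and 3192, 3362 and 3165 in wildtype libraries. No overlap was seen between genotypes. Its log2 fold change of -0.21 had the smallest SE of the set, 0.098, and an adjusted p of 0.478 in edgeR's test. *Idua* and *Ids*, whose enzymes act on iduronic acid in heparan and dermatan sulfate, had log2 fold changes of -0.46 and -0.13. *Sgsh* and *Naglu*, whose enzymes act on heparan sulfate, had -0.39 and -0.22, and *Arsa*, the gene of the enzyme that desulfates sulfatide, had -0.13. These 5 overlapped between genotypes. Without wildtype replicate 2 the log2 fold changes were -0.24 for *Idua*, -0.08 for *Ids*, -0.14 for *Sgsh*, -0.33 for *Naglu* and 0.06 for *Arsa*.

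Of the 4 lipid hydrolases, *Ppt1* (chr4:122836242-122859175, plus strand), which encodes the enzyme that removes palmitate from proteins, had an unadjusted p under 0.05 in edgeR's test. Among all genes tested, 5.71% were lower at this p. It had 5640, 5607 and 6026 normalized counts in *Nhe6*-knockout and 6613, 6944 and 8737 in wildtype libraries. The genotypes did not overlap, with wildtype replicate 3 the highest. On the log2 scale, the fold change was -0.37 (SE 0.15), with an unadjusted p of 0.0456 and an adjusted p of 0.416 in edgeR's test. *Smpd1*, the gene of acid sphingomyelinase, had a log2 fold change of -0.25, *Asah1*, the gene of acid ceramidase, of -0.14, and *Lipa*, the gene of lysosomal acid lipase, of 0.06. All 3 overlapped between genotypes, and without wildtype replicate 2 the values were -0.14, 0.09 and 0.20.

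*Npc1* and *Npc2*, whose proteins pass cholesterol out of the lysosome, had log2 fold changes of -0.20 and -0.34. Both were highest in wildtype replicate 2, and without it the values were 0.01 and -0.18. *Lamp1* (chr8:13159161-13175338, plus strand) had 29955, 29632 and 26891 normalized counts in *Nhe6*-knockout and 33617, 51348 and 31110 in wildtype libraries. No overlap was seen between genotypes, and wildtype replicate 2 was far above the rest. The log2 fold change was -0.42 (SE 0.24, adjusted p = 0.554 in edgeR's test) and -0.17 without wildtype replicate 2. *Lamp2*, which encodes a membrane protein needed for the fusion of autophagosomes with lysosomes, had 43194, 39584 and 37814 normalized counts in *Nhe6*-knockout and 44784, 37158 and 51643 in wildtype libraries. Here wildtype replicate 2 was the lowest, and the log2 fold change was -0.15 with and -0.27 without it. *Scarb2*, the gene of the receptor that brings glucocerebrosidase to the lysosome, was at 2299 to 2336 normalized counts in *Nhe6*-knockout and 2255 to 3688 in wildtype libraries, and its log2 fold change was -0.33, or -0.13 without wildtype replicate 2.

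*Gnptab* (chr10:88379132-88447329, plus strand) encodes the enzyme that starts the mannose 6-phosphate tag. It had 2694, 2569 and 2666 normalized counts in *Nhe6*-knockout and 2523, 6824 and 2415 in wildtype libraries. Wildtype replicate 2 stood far above the other 5 libraries, which lay close together. A log2 fold change of -0.57 (SE 0.41, adjusted p = 0.66 in edgeR's test) turned to 0.09 without that library. *M6pr*, the gene of a receptor for the tag, had 2769, 2608 and 3070 normalized counts in *Nhe6*-knockout and 3039, 3561 and 4025 in wildtype libraries. *Nhe6*-knockout replicate 3 and wildtype replicate 1 were almost equal, and the log2 fold change of -0.33 had an adjusted p of 0.443 in edgeR's test. *Tfeb* had 232, 263 and 174 normalized counts in *Nhe6*-knockout and 409, 231 and 149 in wildtype libraries. All *Nhe6*-knockout values lay within the wildtype range, and the log2 fold change was -0.24 (SE 0.39, adjusted p = 0.866 in edgeR's test).

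The members did not follow a single order of libraries. Wildtype replicates 1 and 2 were the highest of the 6 libraries for 18 members each, where wildtype replicate 2 was the highest for 26.8% and wildtype replicate 1 for 19.8% of all genes tested. *Nhe6*-knockout replicate 3 was the lowest library for 14 members (12.5% of all genes tested) and wildtype replicate 2 for 7 (26.5%). Wildtype replicate 3 was the lowest for 13, but its share over all genes was not taken. For 39 of the 45 members the SD of the log2 counts was larger in wildtype than in *Nhe6*-knockout libraries (86.7%, against 82.2% of all genes). Without wildtype replicate 2, 9 of the 45 members changed the sign of their log2 fold change, as did 2405 of the 13479 genes tested. The 9 were *Lgmn*, *Ctsd*, *Gaa*, *Glb1*, *Arsa*, *Asah1*, *Grn*, *Npc1* and *Gnptab*. *Gm2a*, *Manba*, *Ctsb*, *Ctsf* and *Ppt1* did not change sign, with log2 fold changes of -0.85 to -0.42 without that library.

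**Figure D5:**
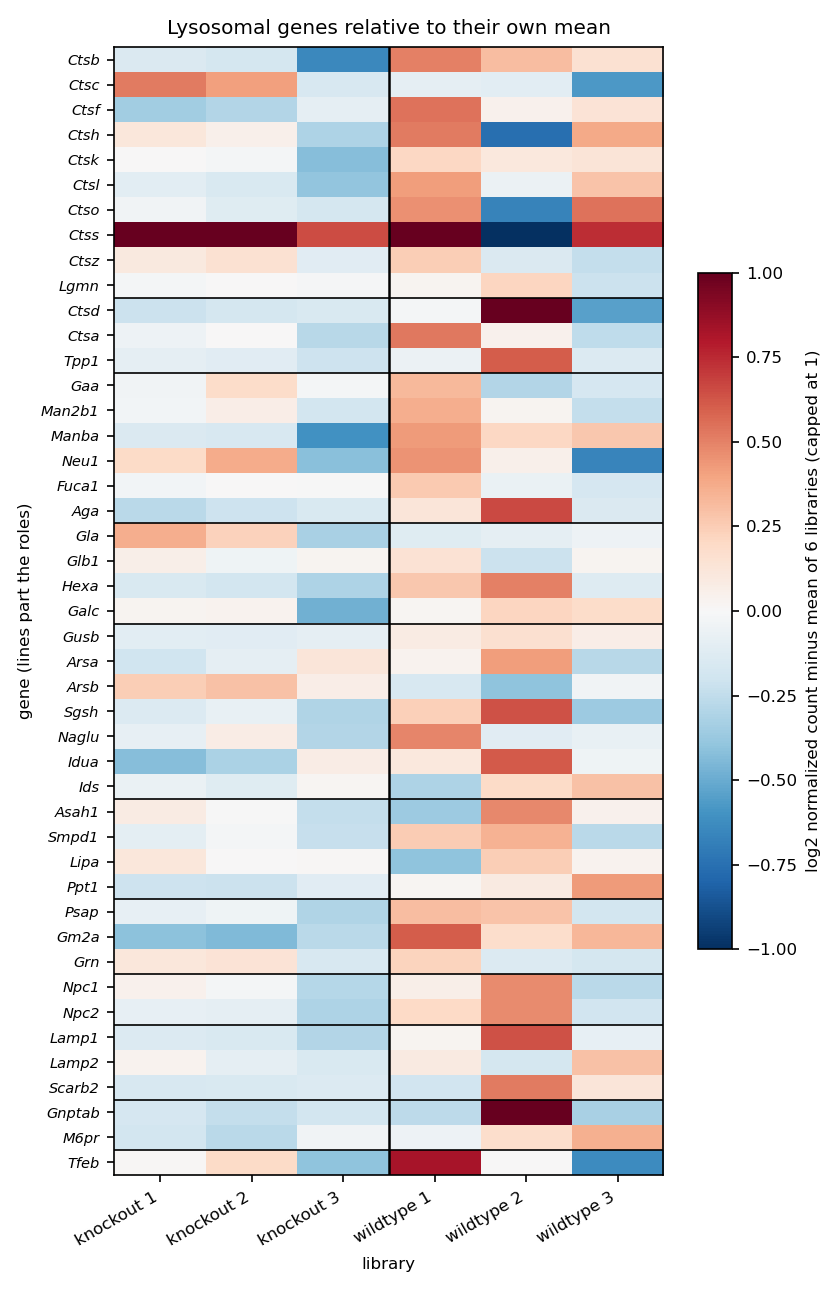
Log2 normalized count of each member minus its mean over the 6 libraries, with libraries in columns and genes by role in rows. Red is above and blue below the gene's own mean, capped at 1. The wildtype 1 and wildtype 2 columns hold the highest value of 18 genes each, and *Ctss*, *Ctsh* and *Ctso* are lowest in wildtype 2.

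Since TFEB is a member, the promoters of the members were searched for its element. Promoter sequences were taken from RefSeq (GRCm38.p6), from 250 bases before to 50 bases after each start, and 39 of the 45 members had an entry. The letters GTCACGTG, the core of the CLEAR element, were searched on both strands, and they contain the E-box CACGTG. They were present in 9 of the 39 members with an entry (23.1%), against 689 of 27025 genes with an entry (2.55%) and 2.25% of all 32851 promoters. Of the further lysosomal genes described below, 7 of 44 with an entry (15.9%) had them. The element is known from promoters of lysosomal genes, so a high share in such lists is no independent result. The 9 members were *Lgmn*, *Ctsd*, *Ctsa*, *Gla*, *Glb1*, *Arsa*, *Sgsh*, *Naglu* and *Lamp1*. The longer palindrome made by adding AC at the 3′ end of these letters was present in 0 of the 39 and in 0.37% of all genes with an entry (0.326% of promoters). It was present in 2 of the 44 further lysosomal genes (4.55%). CACGTG was present in 12 of the 39 (30.8%) and in 8.09% of all genes with an entry (7.15% of promoters). A window of 30 bases is shown for 5 members of different roles, to let the shared letters, in capitals, be compared. Each is written 5′ to 3′ on the strand that reads GTCACGTG.
Lamp1: cacgtgatgtgGTCACGTGccagtcggcat
Ctsd: gccctcaacggGTCACGTGagacgcgggcg
Naglu: ccaaccttcagGTCACGTGgcccgaggtcg
Glb1: gctgcttctgaGTCACGTGgcctacagagg
Lgmn: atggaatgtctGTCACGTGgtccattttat

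The *Lamp1* window lies at chr8:13159122-13159151 (minus strand), the *Ctsd* window at chr7:142387907-142387936 (plus strand) and the *Naglu* window at chr11:101070008-101070037 (plus strand). The *Glb1* window lies at chr9:114401017-114401046 (plus strand) and the *Lgmn* window at chr12:102439125-102439154 (minus strand). The centre of the capital letters was at -24 bases from the RefSeq start in *Lamp1*, -94 in *Ctsd*, -71 in *Naglu*, -46 in *Glb1* and -47 in *Lgmn*. The RefSeq start can differ from the gene coordinates given above, and the *Ctsd* window lies inside those coordinates. *Ctsd* had a further GTCACGTG at -241. In *Lamp1* a second E-box stands at the left end of the window. The 9 members with GTCACGTG had a median log2 fold change of -0.22, from -0.53 to 0.21, and the 30 members with an entry but without these letters had a median of -0.26, from -0.76 to 1.04. Without wildtype replicate 2 the medians were -0.08 and -0.16, and 5 of the 9 and 23 of the 30 were below 0. *Gm2a*, *Manba*, *Ctsf*, *Arsb* and *Ppt1* were among the 30, and *Ctsb* had no entry. A match of letters is a description of the sequence and not a measured binding site.

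Beyond the members, 61 further lysosomal genes were listed by role, of which 55 passed the filter. With edgeR 0 of the 55 passed after adjustment, and 7 had an unadjusted p under 0.05, all 7 lower in *Nhe6*-knockout cultures (5.71% of all genes tested). DESeq2's test gave 4 with an adjusted p under 0.05 (3.99% of its genes), *Naaa*, *Laptm4a* and *Cst3* among them, and edgeR's test without wildtype replicate 2 gave 2 (2.88%), *Smpdl3a* and *Slc38a9*. *Laptm4a* and *Smpdl3a* are named after their values were seen. For 37 of the 55 genes (67.3%, against 51.9% of all genes tested) the log2 fold change was below 0, the median over the list was -0.15, and 12 lay lower in all *Nhe6*-knockout libraries (9.57% of all genes tested) and 1, *Tfe3*, a relative of *Tfeb*, higher (10.3%).

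*Naaa*, the gene of an acid amidase of fatty acid ethanolamides, had 723, 668 and 518 normalized counts in *Nhe6*-knockout and 1595, 1226 and 1142 in wildtype libraries. The genotypes did not overlap, and the log2 fold change of -1.05 (SE 0.20) had an adjusted p of 0.109 in edgeR's test. *Cst3*, the gene of cystatin C, a secreted inhibitor of cysteine cathepsins, had 10335, 10198 and 12594 normalized counts in *Nhe6*-knockout and 21359, 19025 and 16228 in wildtype libraries. It did not overlap either, with a log2 fold change of -0.77 (SE 0.18, adjusted p = 0.154 in edgeR's test). *Siae*, the gene of a sialic acid esterase, and *Abca2*, the gene of a lipid transporter, had log2 fold changes of -0.63 and -0.64 without overlap. *Slc38a9*, the gene of an amino acid transporter that signals to mTORC1, had 675, 608 and 547 normalized counts in *Nhe6*-knockout and 1503, 613 and 1283 in wildtype libraries. Wildtype replicate 2 fell within the *Nhe6*-knockout range, and the log2 fold change was -0.89 (SE 0.33, adjusted p = 0.367 in edgeR's test).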

How the data were processed

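RNA of 6 cultures, 3 per genotype, was read as poly(A)-enriched stranded libraries with 75 sequencing cycles. The authors deposited raw counts of reads per gene symbol, without normalization. The submitters' processing notes name bcl2fastq 2.20.0.422, STAR 2.7.7a, HTSeq 0.13.5, DESeq2 1.26.0 and mm10 (GRCm38). The 5 summary lines for reads outside genes held 22.2% of reads and were left out.

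Genes were filtered with filterByExpr (minimum count 10), normalized by TMM (factors 0.976 to 1.03) and compared in R 4.3.3 with edgeR 4.0.16 (glmQLFTest, the quasi-likelihood test, two-sided). P-values were adjusted by Benjamini-Hochberg over all 13479 genes (threshold 0.05). The SE of a log2 fold change was obtained by dividing its absolute value by the root of F. Normalized counts were scaled to the mean library size. No exact permutation test, two-sided, can go below p = 0.1 with 3 cultures per genotype. P-values set the genotype difference against the spread between these cultures, with the 6 libraries taken as independent. At 25587097 to 29126232 counts per library, the spread between cultures limits the precision of abundant genes more than counting does. The scripts were tested on simulated data.

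RPKM used the lower median length of principal transcripts in GENCODE M21. DESeq2 1.42.0, limma-voom (limma 3.58.1), other normalizations and filters, a replicate block and leaving out each culture were alternatives. Summing *Nhe6*-knockout replicates 1 and 2 was added after seeing the data. The members and lists were chosen with earlier results of these data known. Members with an unadjusted p under 0.05 or the 5 smallest p were described with each library's value. Further members were given with each library's value after their values were seen, mostly where wildtype replicate 2 stood apart or the genotypes did not overlap. Of other lysosomal genes, up to 6 with the smallest unadjusted p under 0.05 were named. Some genes that this rule covers are not reported here.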

Additional observations from a re-analysis of the deposited data

How the results depend on the processing

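The number of members with an adjusted p under 0.05 was 0 in edgeR's test, 1 with DESeq2's Wald test and 0 to 2 when each culture was left out in turn, the 2 coming without wildtype replicate 2. For the other lysosomal genes it was 0, 4 with DESeq2 and 0 to 2 with a culture left out, again 2 without wildtype replicate 2. Over all genes it was 9 in the main test, 21 without a filter, 21 with at least 10 counts in every library, 593 with DESeq2, 1 with *Nhe6*-knockout replicates 1 and 2 summed, and 0 to 395 with a culture left out. The cause of these differences was not tested. With *Nhe6*-knockout replicates 1 and 2 summed, 0 members passed after adjustment in edgeR's test. There, 2 members had an unadjusted p under 0.05, *Gm2a* (0.0116) and *Manba* (0.0176), against 847 of all genes tested. With a culture left out, the log2 fold change of *Ctsd* ranged from -0.838 to 0.0717 and that of *Gnptab* from -0.829 to 0.0934, and both were above 0 only without wildtype replicate 2. The median over the members stayed below 0, from -0.30 to -0.14 over the 14 alternatives. Same-numbered cultures were not paired: their deviations correlated at 0.19, -0.22 and 0.076, and not every culture correlated best with its own number. With the replicate number as a block, 2 genes, 0 members and 0 other lysosomal genes passed, and the members' median was -0.21. *Ctss*, at 0 in wildtype replicate 2, and *Tfeb*, at 149 to 409 normalized counts, had SEs of 1.25 and 0.39, which limits what can be said of them.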
